A study of Homo sapiens with 6 samples.

Results

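The 9 genes FOS, FOSB, FOSL1, FOSL2, JUN, JUNB, JUND, ATF3 and BATF3 encode subunits of the dimeric transcription factor AP-1 and its close relatives. They were chosen by symbol, with earlier results of these data known, and all 9 were found among the 23686 genes of the deposited count files. The study sequenced RNA from 6 samples of HEK293 cells, an established human embryonic kidney line grown in high-glucose medium with serum. The sampled cells of both groups expressed green fluorescent protein (GFP) and were collected by fluorescence-activated cell sorting as GFP-positive cells. The 3 co-culture samples had been grown beside HEK293 cells that carried DAAO, which commonly stands for D-amino acid oxidase, and produced reactive oxygen species (ROS). The 3 control samples were GFP-positive wild-type cells that were sorted in the same way. One treatment text, with 25 µM D-alanine and 10 h of co-culture, is given for all 6 samples, so whether the controls received D-alanine or any partner cells cannot be told. The comparison asked how ROS-producing neighbours alter transcript levels in nearby cells without the enzyme.

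AP-1 proteins share a basic leucine zipper, in which the zipper joins a pair of subunits and the basic region binds DNA. FOS proteins need a JUN partner, whereas JUN proteins also pair with each other, and ATF3 and BATF3 pair with JUN proteins. Many of these genes are immediate-early genes, transcribed briefly after growth factors, stress or oxidants, and their transcripts are short-lived. AP-1 dimers bind the sequence TGANTCA, and dimers with ATF or CREB proteins prefer TGACGTCA.

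The libraries held 19091085 to 36250314 reads assigned to genes. In the first 2 principal components, which carried 39.7% and 29.9% of the variance of log2 CPM (reads scaled to a common library total), the first separated the groups and the next set control library 1 apart from controls 2 and 3. The libraries also fell into 2 classes by the share of a gene's reads that fell on the opposite strand. Taken over the 4907 genes that had 1000 or more reads throughout, its median was 0.124% and 0.211% in co-culture libraries 2 and 3, and 1.57% to 1.75% in co-culture library 1 and the controls. The low class holds co-culture libraries only, so a model with this class as a further term (below, the class-adjusted fit) sets co-culture library 1 against the controls. Results are therefore given also from that fit and without control library 1. The HEK293 markers KRT8, KRT18, VIM, PAX2, NEFM and NEFL were present in every library, with KRT8 at 362 CPM or more. CD3E and HBB had 0 reads throughout, while COL1A1, listed among markers of other cells, stood at 30.9 to 43.9 CPM. The human gene DAO had 0 reads in all 6 libraries, which allows up to 0.0828 to 0.157 CPM by library (3 reads, counting error only) and says nothing of a transgene of another sequence.

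FOSB, FOSL1 and FOSL2 rose in co-culture, and FOS, JUN, JUNB and JUND did not pass the test. FOSB and FOSL1 were 2.50-fold and 2.40-fold higher, and FOSL2 was 1.61-fold higher. ATF3 was 1.49-fold higher without passing. In all, 3 of the 9 members had an adjusted p under 0.05 in edgeR's quasi-likelihood test with Benjamini-Hochberg adjustment over 14582 tested genes, and all 3 were higher. Among all tested genes, 4.83% passed, and 2.66% passed as higher in co-culture. The family was chosen with earlier results of these data known, so its contrast with all tested genes is a description. The CPM ranges of the groups did not overlap for 6 of the 9 members, 4 higher and 2 lower, against 29.3% of all tested genes in either direction and 14.3% as higher. All 9 members passed the filter on low counts, with at least 52 reads in every library. In bulk RNA, a change in every cell and a larger change in some of the cells cannot be told apart. The labels do not say whether samples of a group came from separate cultures, so p-values measure the spread between these samples, which may be technical.

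**Figure D1:**
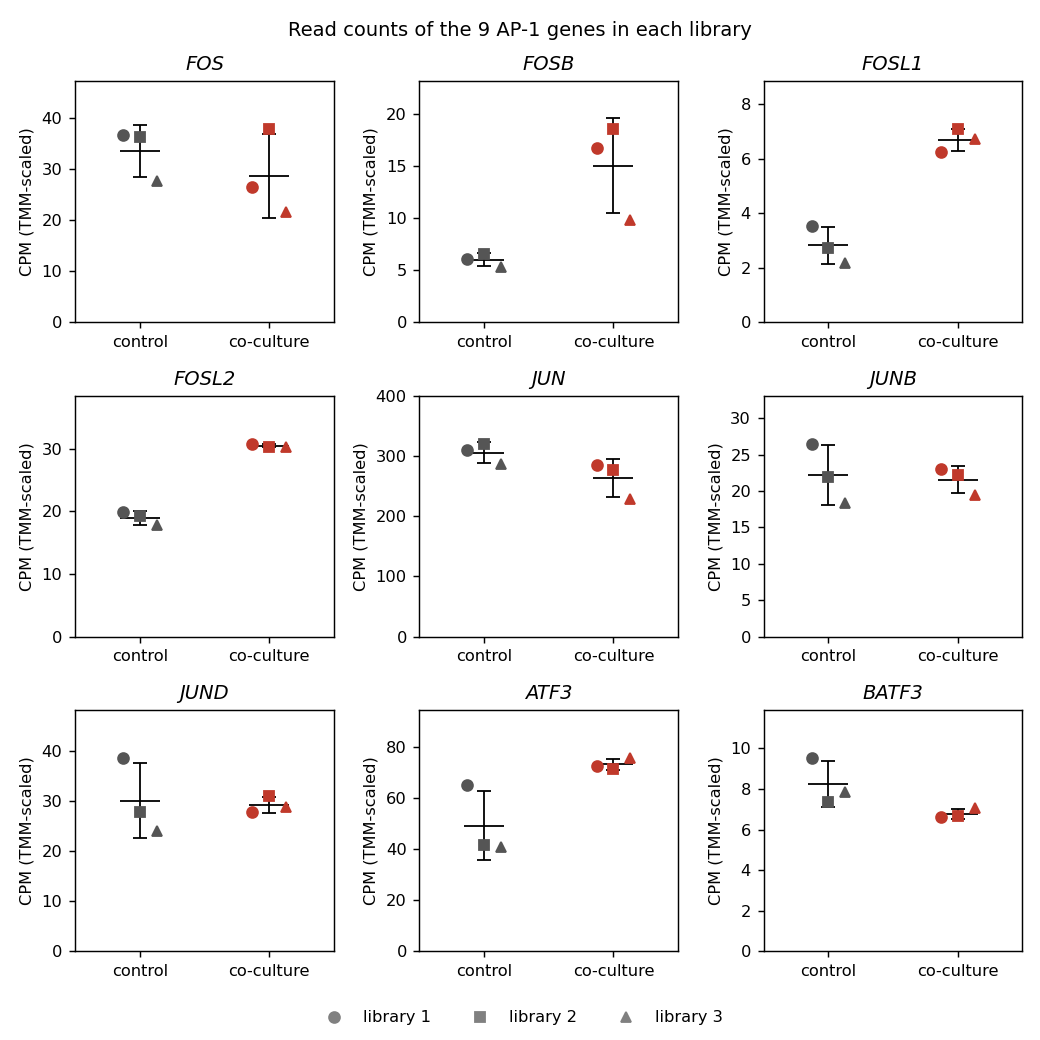
Level of each of the 9 genes in CPM, scaled with trimmed means of M-values (y axis, from 0), in the control and co-culture libraries. Points are libraries, horizontal lines are means and bars are SDs (n = 3 each). FOSB, FOSL1, FOSL2 and ATF3 are higher in every co-culture library than in any control, and FOS, JUNB and JUND overlap.

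FOS encodes c-Fos, the archetypal member induced within minutes of a stimulus and lost soon after. Its level was 26.5, 37.7 and 21.6 CPM in co-culture libraries 1, 2 and 3 and 36.6, 36.2 and 27.7 CPM in control libraries 1, 2 and 3. The groups overlapped, with the highest and the lowest value both in co-culture. The log2 fold change was -0.23 (SE 0.21, edgeR adjusted p 0.554), with a 95% interval from -0.73 to 0.26. On dropping co-culture library 2 it was -0.48, and on dropping co-culture library 3 it was -0.05, with edgeR adjusted p-values of 0.192 and 0.890. On dropping control library 3 it was -0.36.

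FOSB encodes FosB and, through a shorter splice form, ΔFosB, which lacks part of the activation domain and is unusually stable. The files count per gene, so the forms cannot be told apart. FOSB stood at 16.8, 18.6 and 9.86 CPM in co-culture libraries 1, 2 and 3 and at 6.06, 6.57 and 5.33 CPM in the controls. Every co-culture library was above every control, and co-culture library 3 was well below the other 2. The means were 15.1 ± 4.61 and 5.99 ± 0.624 CPM (SD, n = 3 each), and edgeR put the log2 fold change at 1.32 (SE 0.23, adjusted p 0.0154). FOSB stayed higher in co-culture whichever library was left out, so no single library carried the rise, but its call was mostly lost. When each of the 6 libraries was dropped in turn, it held once, on dropping co-culture library 3 (1.57, edgeR adjusted p 0.00458), and the other 5 fits gave 1.14 to 1.39 with adjusted p-values from 0.0636 to 0.121. The gene ERCC1 overlaps FOSB on the opposite strand in GENCODE release 29, and in the forward-strand counting FOSB had 0 to 3 reads per library.

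FOSL1 encodes Fra-1, which lacks the strong activation domain of c-Fos and is often induced later and for longer by growth factors. It was a low transcript, at 6.25, 7.08 and 6.70 CPM in co-culture libraries 1, 2 and 3 and 3.54, 2.71 and 2.19 CPM in the controls, from 52 to 240 reads. The groups stood apart, and the co-culture libraries lay close together. The log2 fold change was 1.26 (SE 0.19, edgeR adjusted p 0.00591). The call was lost on dropping co-culture library 2 (1.22) or control library 2 (1.24), with edgeR adjusted p-values of 0.0597 and 0.0590.

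FOSL2 encodes Fra-2, the other Fos-related antigen. It had the smallest change of the 3 and the tightest replicates, with 30.8, 30.3 and 30.3 CPM in co-culture libraries 1, 2 and 3 and 19.9, 19.3 and 17.8 CPM in the controls. The log2 fold change was 0.68 (SE 0.08, 95% interval 0.52 to 0.85, edgeR adjusted p 0.00143), the lowest p of the family and rank 20 of all tested genes. FOSL2 passed in 14 of 15 other settings, including all 6 that left out a library, with log2 fold changes from 0.64 to 0.72 over the 15. The exception was the class-adjusted fit (0.70, edgeR adjusted p 0.0586).

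JUN encodes c-Jun, the main partner of FOS proteins and the target of the JNK kinases. It was the most abundant member, at 286, 277 and 228 CPM in co-culture libraries 1, 2 and 3 and 309, 320 and 287 CPM in the controls. The co-culture values were all below the controls, the nearest pair being 286 and 287 CPM. The log2 fold change of -0.21 (SE 0.09, 95% interval -0.40 to -0.02) had an unadjusted p of 0.0313 and an edgeR adjusted p of 0.169. It was -0.12 without co-culture library 3 and -0.096 in the class-adjusted fit (edgeR adjusted p 0.409 and 0.781).

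JUNB and JUND encode the other JUN proteins, of which JunB is itself immediate-early and JunD is made more steadily. JUNB stood at 23.1, 22.1 and 19.5 CPM in co-culture against 26.5, 21.9 and 18.3 CPM in the controls, and JUND at 27.9, 30.9 and 28.7 CPM against 38.5, 27.7 and 24.1 CPM. Control library 1 held the highest value of both genes, and the co-culture values fell within the range of the controls. The log2 fold change was -0.04 for both, with 95% intervals from -0.33 to 0.24 for JUNB and from -0.38 to 0.30 for JUND (edgeR adjusted p 0.866 and 0.900). Both directions depended on control library 1: without it JUNB stood at 0.10 and JUND at 0.18 (edgeR adjusted p 0.498 and 0.137).

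ATF3 encodes a stress-induced factor that often represses as a homodimer and binds with JUN proteins as a heterodimer. Its level was 72.5, 71.5 and 75.5 CPM in co-culture libraries 1, 2 and 3 and 64.9, 41.6 and 41.0 CPM in the controls. The co-culture libraries were alike, and control library 1 stood between them and the other controls. The log2 fold change was 0.58 (SE 0.17, edgeR adjusted p 0.0907). Without control library 1 it was 0.83, with an edgeR adjusted p of 8.10e-08. ATF3 also passed with DESeq2 (adjusted p 0.00230) and limma-voom (adjusted p 0.0398), and its adjusted p over the 15 settings ran from 8.10e-08 to 0.399.

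BATF3 encodes a small factor without an activation domain, best known in dendritic cells, that pairs with JUN proteins. Its level was 6.60, 6.65 and 7.04 CPM in co-culture and 9.50, 7.36 and 7.86 CPM in the controls, with control library 1 the highest. The groups did not overlap, and the log2 fold change of -0.28 (SE 0.14, 95% interval -0.58 to 0.02) did not pass (edgeR adjusted p 0.247). Without control library 1 it was -0.17.

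In the class-adjusted fit, 0 of the 9 members passed, where 0.199% of all tested genes did, and 3 had an unadjusted p under 0.05, against 12.5% of all tested genes. The log2 fold changes of FOSB, FOSL1, FOSL2 and ATF3 were 1.49, 1.16, 0.70 and 0.56 (edgeR adjusted p 0.136, 0.175, 0.0586 and 0.399). Their unadjusted p-values were 0.000911, 0.00190, 0.000144 and 0.0501. The sizes lay near those of the pooled fit, while its calls were lost. The class-adjusted fit in effect sets co-culture library 1 alone against the same controls, and the pooled fit holds these libraries too. Similar sizes are therefore no separate support for the changes. Without control library 1, 20.8% of all tested genes passed, and 3 of the 9 members did. They were FOSL1, FOSL2 and ATF3, at 1.46, 0.72 and 0.83, and FOSB (1.32) had an edgeR adjusted p of 0.121.

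**Figure D2:**
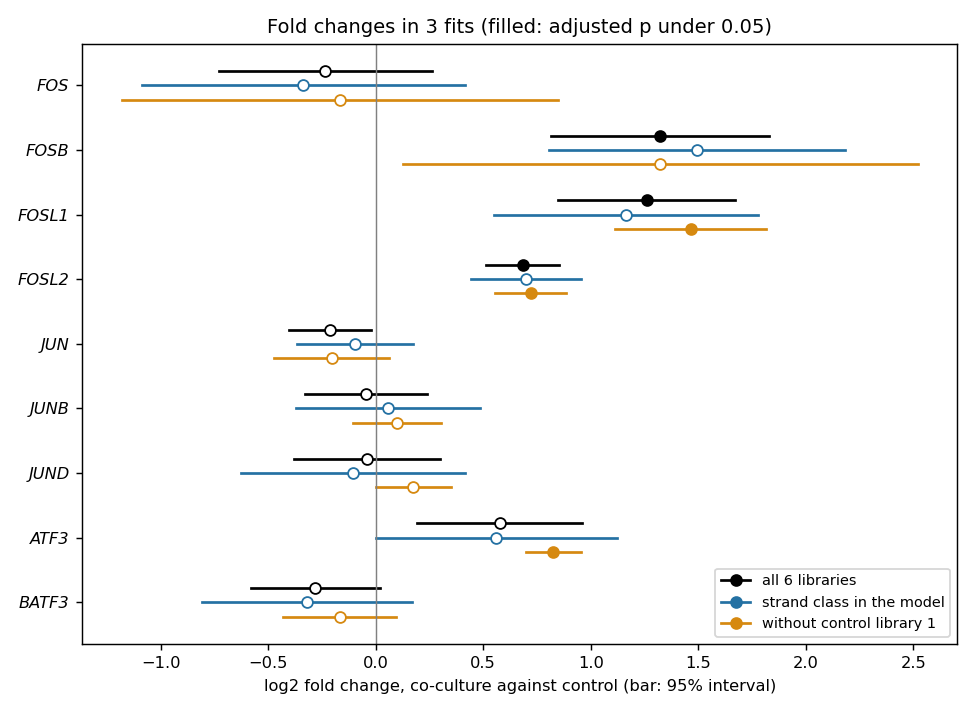
Log2 fold change of co-culture against control (x axis) with its 95% interval for each gene in 3 fits: all 6 libraries, the strand class in the model, and without control library 1. Filled points have an adjusted p under 0.05 in edgeR. FOSL2 lies at 0.68, 0.70 and 0.72, and ATF3 passes only without control library 1 among these 3 fits. JUN lies at -0.21, -0.096 and -0.20, and JUNB and JUND take both signs.

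Whether members differed from each other in response was tested on ratios of counts within a library, which do not depend on library scaling. The 4 pairs were chosen with earlier results of these data known, and the ratios use the same counts as the fold changes. Groups that stand apart here are therefore no separate support for those changes. The log2 ratio of FOSB to FOS was -0.65, -1.02 and -1.13 in co-culture libraries 1, 2 and 3 and -2.59, -2.45 and -2.37 in the controls, a difference of 1.54. The groups stood apart, although neither FOS nor FOSB was level among the co-culture libraries. The log2 ratio of FOSL1 to FOSL2 was higher in co-culture by 0.58 and that of ATF3 to JUN by 0.82, both without overlap. That of JUNB to JUN differed by 0.19, with overlap. In exact two-sided permutation tests of the 4 ratios (n = 3 each), p was 0.1 for the first 3 named, which is the smallest p that 3 against 3 allows, and 0.4 for JUNB to JUN. The Benjamini-Hochberg adjusted values were 0.133 and 0.4, so none passed 0.05, which this exact test cannot reach with these numbers of libraries.

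**Figure D3:**
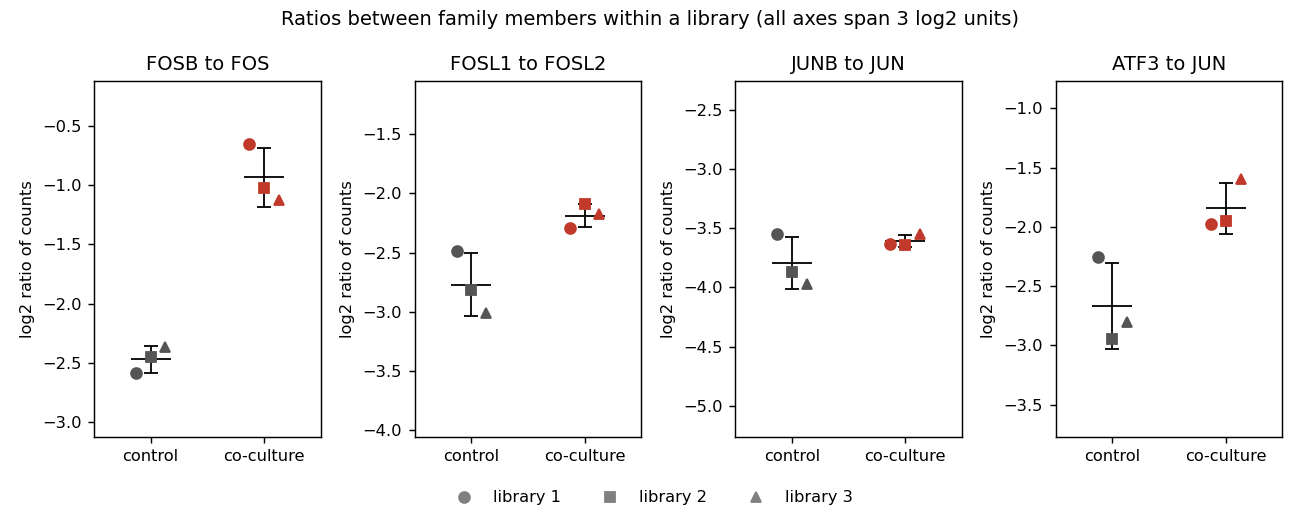
Log2 ratio of the counts of 2 members within each library (y axis, each panel spanning the same number of log2 units) for 4 pairs of genes. Points are libraries, lines are means and bars are SDs (n = 3 each). The groups do not overlap for FOSB to FOS, FOSL1 to FOSL2 and ATF3 to JUN, and overlap for JUNB to JUN.

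Levels of different genes were compared as CPM per kilobase of transcript (RPKM), with the longest protein-coding transcript of GENCODE release 29 as the length. In the controls the order of mean RPKM was JUN (86.3), ATF3 (24.2), JUND (16.1), FOS (15.5), JUNB (12.2), BATF3 (8.41), FOSL2 (2.83), FOSL1 (1.69) and FOSB (1.59). The control values of ATF3 and JUND overlapped, as did those of JUND, FOS and JUNB and those of FOSL1 and FOSB. In co-culture the order of the means was JUN (74.5), ATF3 (36.0), JUND (15.6), FOS (13.3), JUNB (11.8), BATF3 (6.90), FOSL2 (4.54), FOSL1 (4.002) and FOSB (3.996). The co-culture values of FOS overlapped those of JUND and of JUNB, which stood apart from each other, and those of FOSB spanned those of FOSL1 and FOSL2. The length depends on the transcript, from 1057 to 3775 bases for FOSB, 629 to 2158 for FOS and 482 to 2033 for ATF3, so the places of these genes in the order, and the shares given next, depend on the length chosen.

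Within the summed RPKM of the FOS subfamily, the share of FOS was 71.7%, 72.8% and 70.5% in control libraries 1, 2 and 3 and 49.0%, 56.1% and 47.3% in co-culture. FOS thus made up a smaller part in every co-culture library than in any control. The share of FOSB was 7.37% ± 0.519 in the controls and 15.3% ± 2.75 in co-culture, and that of FOSL1 was 7.74% ± 1.05 and 15.9% ± 2.80 (SD, n = 3 each). FOSL2 held 13.2% ± 1.17 and 18.1% ± 3.44, where co-culture library 2 (14.5%) fell within the control range. The subfamily's sum itself was 21.6 ± 2.99 RPKM in the controls and 25.8 ± 5.05 RPKM in co-culture, with overlap. Within the JUN subfamily, JUN held 75.4% ± 3.61 in the controls and 72.9% ± 1.66 in co-culture.

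**Figure D4:**
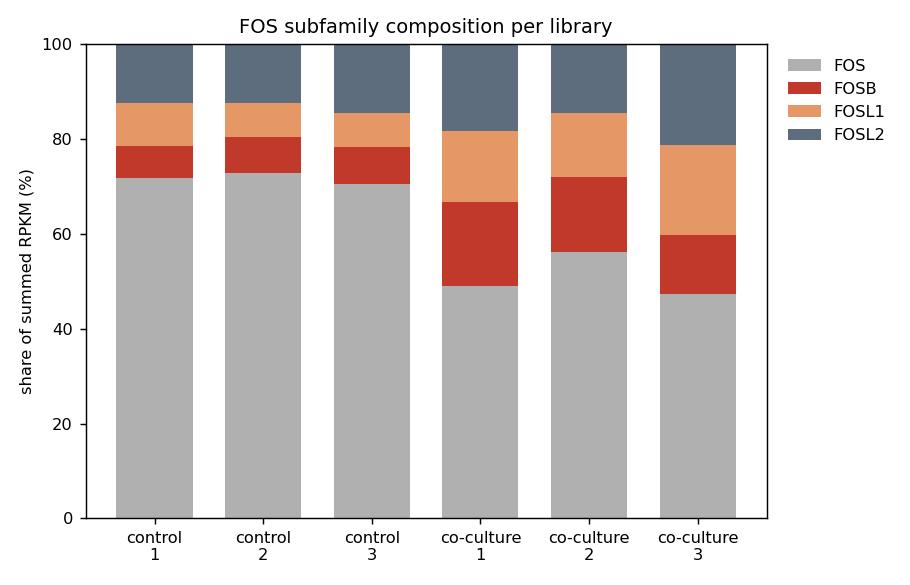
Share of each FOS subfamily gene in the subfamily's summed RPKM (y axis, percent) in each library. FOS holds 70.5% to 72.8% in the controls and 47.3% to 56.1% in co-culture, and the rest is FOSB, FOSL1 and FOSL2.

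RefSeq promoter windows on GRCh38.p14 were matched to 7 of the 9 members. The 150 bases before the start sites of the FOS subfamily genes are shown for FOS, which did not pass, and for FOSB and FOSL2, which rose. Capitals mark the 6 letters TGACGT, the left part of the CREB and ATF site.
FOS, chr14:75278678-75278827, plus strand: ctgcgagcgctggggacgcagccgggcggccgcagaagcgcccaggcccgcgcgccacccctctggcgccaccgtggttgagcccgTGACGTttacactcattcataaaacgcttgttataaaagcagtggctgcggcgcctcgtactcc
FOSB, chr19:45467846-45467995, plus strand: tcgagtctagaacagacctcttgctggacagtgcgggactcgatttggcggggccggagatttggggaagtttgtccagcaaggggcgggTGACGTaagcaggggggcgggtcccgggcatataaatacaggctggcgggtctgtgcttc
FOSL2, chr2:28392708-28392857, plus strand: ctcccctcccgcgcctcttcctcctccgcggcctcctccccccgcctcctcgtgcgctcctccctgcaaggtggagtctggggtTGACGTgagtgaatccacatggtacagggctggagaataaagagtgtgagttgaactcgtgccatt
The match begins 64 bases before the start in FOS, 60 in FOSB and 66 in FOSL2, and JUND holds it too. FOSL1, which also rose, had no window, and whether the match bears on these levels was not tested. Of all 35116 windows, which run from 250 bases before to 50 after a start, 7.98% hold TGACGT on either strand. This motif was added after the windows had been read.

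The AP-1 sequence TGANTCA was found in 1 member window, that of FOSL2, 5 bases after the start, and in 7.71% of all windows. The full site TGACGTCA, which contains TGACGT, was found in JUND alone of these 7 members, and in 1.85% of all windows. The related TGACATCA, also added after reading, was found in JUN and in the first of 2 ATF3 windows, and in 2.61% of all windows. These stretches are shown because FOSL2 rose while JUN and JUND did not pass, with capitals on the match.
FOSL2, chr2:28392847-28392883, plus strand: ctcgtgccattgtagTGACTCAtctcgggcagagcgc
JUND, chr19:18281800-18281837, minus strand: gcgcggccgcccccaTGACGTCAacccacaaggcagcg
JUN, chr1:58784092-58784129, minus strand: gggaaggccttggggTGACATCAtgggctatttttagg
ATF3, chr1:212565269-212565306, plus strand: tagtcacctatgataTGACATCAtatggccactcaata
The CArG box, which serum response factor binds, was in 1.29% of all windows and in none of the 8 member windows. The JUNB window and the other ATF3 window held none of the 5 motifs. The windows begin 250 bases before a start, so a site further upstream would not be seen. Start sites of ATF3 outside its 2 windows were not searched. A match or its absence describes these letters in this window alone.

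The partners, regulators and targets around the family were described from 5 lists, by counts beside those of all tested genes. Of 36 tested AP-1 target genes, 7 rose and 2 fell, a share of 25.0% against 4.83% of all tested genes, and the list's median log2 fold change was 0.14 against 0.00. The list was written with some results known, among them that TFPI2 rose and MT2A fell. TFPI2, a protease inhibitor of the extracellular matrix, rose from 16.2 ± 3.91 to 41.3 ± 2.58 CPM (SD, n = 3 each; log2 fold change 1.34). IL11, a cytokine, rose from 1.26 ± 0.372 to 2.63 ± 0.251 CPM (1.08, edgeR adjusted p 0.0394). CD44, a hyaluronan receptor, TNC, a matrix protein, TGFB1, a growth factor, PLAUR, the urokinase receptor, and VIM, an intermediate filament protein, also rose, by log2 fold changes of 0.57, 0.57, 0.56, 0.67 and 0.40. The genes that fell were MT2A, a metallothionein whose near-identical relatives make its reads uncertain to assign, and CXCL8 (IL8 in the files), a chemokine, at -0.74 and -0.68 (edgeR adjusted p 0.0101 and 0.0465). In the class-adjusted fit, TFPI2 alone of the 9 passed (1.45, edgeR adjusted p 0.0404). There IL11, CD44, TNC, TGFB1, PLAUR and VIM stood at 1.18, 0.60, 0.50, 0.43, 0.59 and 0.38, and MT2A and CXCL8 at -0.69 and -0.48. Without control library 1 the list held 21 called genes, in a fit where 20.8% of all tested genes passed, and its median was 0.28. MMP1, MMP3 and MMP9, the matrix metalloproteinases often used as AP-1 readouts, had too few reads to be tested.

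Of 22 tested dimer partners, 2 rose and 2 fell, a share of 18.2% against 4.83% of all tested genes. CREB5 and MAFK rose, by 0.41 and 0.35 on the log2 scale (edgeR adjusted p 0.0227 and 0.0314). DDIT3, the stress factor CHOP, and ATF5 fell, at -0.98 and -0.61 (edgeR adjusted p 0.00105 and 0.00537). DDIT3 was known from earlier results, and it passed in all 15 other settings. CREB5, MAFK and ATF5 did not pass in the class-adjusted fit, at 0.49, 0.40 and -0.71 (edgeR adjusted p 0.189, 0.234 and 0.110). Of 31 tested MAP kinases and linked kinases, MAPK11, a p38 kinase, and MAP3K2 rose (0.46 and 0.41). MAP2K7 and MAP3K11 fell (-0.33 and -0.32), so that 12.9% of the list passed, against 4.83% of all tested genes. None of these 4 kinases passed in the class-adjusted fit, where MAPK11, MAP3K2, MAP2K7 and MAP3K11 stood at 0.45, 0.49, -0.33 and -0.31. The JNK gene MAPK8 had a log2 fold change of -0.04 without passing.

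Of 15 tested regulators of FOS and JUN promoters, 0 passed in edgeR and limma-voom and 1 in DESeq2, and 4 had an unadjusted p under 0.05 in edgeR, against 23.2% of all tested genes. Serum response factor SRF was at -0.02 (95% interval -0.14 to 0.11) and its partner ELK1 at -0.14. Of 19 tested turnover factors, ZFP36 alone passed, a share of 5.26%, near the 4.83% of all tested genes. ZFP36 is itself immediate-early and encodes tristetraprolin, which speeds the decay of AU-rich transcripts such as that of FOS. It rose from 8.25 ± 1.30 to 12.9 ± 0.656 CPM (SD, n = 3 each), or by 0.65 on the log2 scale (SE 0.13, edgeR adjusted p 0.0214), and stood at 0.67 with an edgeR adjusted p of 0.234 in the class-adjusted fit.

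**Figure D5:**
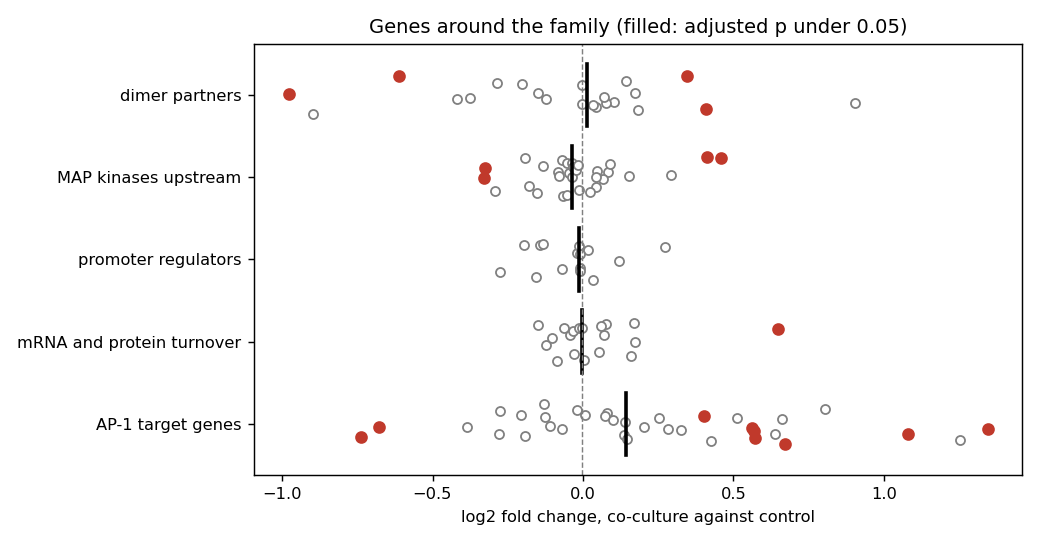
Log2 fold change (x axis) of each tested gene in 5 lists around the family. Filled points have an adjusted p under 0.05 in edgeR, black lines are list medians and the dashed line is the median of all tested genes. The target list has 7 filled points above 0 and 2 below, and the promoter regulators have 0.

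The genes whose pattern over the 6 libraries was most like that of each called member and of ATF3 were picked by Pearson's r of log2 CPM, as a description over libraries that share their scaling. The genes compared had to pass a minimum mean CPM and a minimum spread set from that of the member, with no upper limit on spread. For FOSB the nearest were COL4A3, ANKRD19P and MNS1 (r from 0.971 to 0.974 among 255 genes). For FOSL1 they were STRA6, ZCCHC12 and GPR50 (0.993 to 0.995 among 318), and for FOSL2 they were LANCL1, LRP8 and IDS (0.996 to 0.998 among 2203). LRP8 stood at 65.6, 66.2 and 65.3 CPM in co-culture libraries 1, 2 and 3 and 46.9, 43.9 and 40.6 CPM in the controls, the same ordering of the groups with little spread in co-culture. For ATF3 they were SLC27A3, HILPDA and SLC12A4 (0.993 to 0.996 among 1806). HILPDA shared the high control library 1, with 24.3 CPM there against 12.5 and 12.3 CPM in controls 2 and 3 and 27.8 to 29.3 CPM in co-culture.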

How the data were processed

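The authors deposited raw counts of reads per gene, 1 file per sample, with 3 columns: unstranded, forward and reverse strand. Per the submitters' processing notes, STAR 2.53a (as written there), FastQC and the genome build hg18 were used; the annotation is not given in the sources used here. Per the labels, an Illumina stranded mRNA kit was used. Reverse-strand counts were analysed, and summary lines (14.8% to 17.7% of reads in no gene, 6.48% to 8.42% multimapping) were left out. Genes with filterByExpr's minimum count of 10 (14582) were scaled with TMM and tested in edgeR 4.0.16 (R 4.3.3) with quasi-likelihood tests and Benjamini-Hochberg adjustment at 0.05; standard errors are the log2 fold change over the root of F. Alternatives used DESeq2 1.42.0 and limma 3.58.1. Ratios used a pseudocount of 0.5 and exact permutation in scipy 1.17.1. A read was worth 0.0276 to 0.0524 CPM. Repeat deposits were checked by chi-square per degree of freedom (4.56 to 17.7 within groups), so all samples were kept. The fit was tested on simulated data. Groups came from sample titles. Named genes were all members, up to 4 called genes per list by size of change (CD44, TNC, TGFB1, PLAUR and VIM, and the uncalled genes, were named after their values were seen) and the 3 nearest patterns per called member and ATF3. The members, lists and tests were chosen with earlier results of these data known. A gene of the kinase list is not reported here by name.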

Additional observations from a re-analysis of the deposited data

How the results depend on the processing

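FOSB, FOSL1, FOSL2 and ATF3 were higher and FOS, JUN and BATF3 lower in all 15 other settings. The count of called genes, 704 with all libraries, was 164 with the replicate block and 29 in the class-adjusted fit, and ran from 65 to 3069 when 1 library was left out. The count of called members, 3 of 9, was 0 in the class-adjusted fit and ran from 1 to 3 when 1 library was left out. JUNB reversed to 0.058 in the class-adjusted fit and to 0.03 without co-culture library 3. With each library left out JUNB ran from -0.17 (without control library 3) to 0.10 (without control library 1), and JUND from -0.18 to 0.18 without the same libraries. The direction of all 4 ratios held under a pseudocount of 5, unstranded counts and each library left out, with differences of 1.40 to 1.63 for FOSB to FOS. Total counts in place of TMM moved the share of higher calls from 55.1% to 35.1% and the median gene to -0.04. Same-numbered samples did not deviate together (r of -0.04, -0.08 and -0.09 across genes), so the numbers were not taken as pairs; with the replicate block the called members were again FOSB, FOSL1 and FOSL2. At 52 to 70 reads in the controls, FOSL1 is limited most by depth. The median of the target list stayed positive over the 15 settings (0.07 to 0.28), and those of the dimer partners and turnover factors took both signs (-0.04 to 0.07 and -0.04 to 0.01).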

Other observations

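Control library 3 held the lowest CPM of its group for 8 of the 9 members, all but BATF3. Co-culture library 3 held the lowest of its group for 5 of the 9, namely FOS, FOSB, FOSL2, JUN and JUNB, although FOSL2 was nearly level. These were also the most deeply sequenced libraries of their groups, with 26127509 and 36250314 gene-assigned reads. The part of depth in these levels was not tested. How often the same libraries were lowest over all tested genes was not counted, so whether these counts are particular to the family cannot be told.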
